A study of Mus musculus with 4 samples.

Results

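Cells that carried Csf1r RNA together with RNA of Ace, Adgre4, Cd300e or Spon1 were examined in single-cell libraries of mouse tumor ascites. The cells were selected on their counts of unique molecular identifiers (UMIs), each of which stands for 1 captured RNA molecule. A cell entered the gate with 1000 to 4800 detected genes, at most 15% of its UMIs from mitochondrial genes, at least 1 UMI of Csf1r and at least 2 UMIs summed over Ace, Adgre4, Cd300e and Spon1. Cells with 2 or more Nos2 UMIs, with 3 or more UMIs of Lyve1, Folr2 and Ccl8, with 3 or more of Alox15 and Prg4, with any of Cd79a or Cd3e, or with 2 or more of Mki67 and Top2a were left out. The gate held 1013 of the 37844 cells within the limits on genes and mitochondrial UMIs, out of 133849 barcodes. The libraries labelled siCont replicate 1 and 2 gave 357 and 447 of these cells, and the libraries labelled siFXR1-LNA replicate 1 and 2 gave 76 and 133. Since the UMIs of these 15 genes chose the cells, the levels of those genes are given below as a description, with no test.

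The ascites came from female FVB mice at 6 weeks after injection of tumor cells. The tumors were Br-Luc, a mouse ovarian cancer line that lacks p53 and Brca1 and carries myc and myristoylated Akt, and it is a single line. Both groups carried this tumor and received jetPEI nanoparticles into the peritoneal cavity with an siRNA in locked nucleic acid form, which was a control siRNA in the siCont group and an siRNA against mouse Fxr1 in the siFXR1-LNA group. Per the methods, each library pooled the ascites of 3 mice, so each of the 2 values per group stands for a pool, and the spread between mice was not measured. The methods also state that a replicate of the siFXR1-LNA group, with fewer reads and cells, was left out of the study's analysis. They do not say which, and both libraries labelled siFXR1-LNA were used here.

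Patrolling, or non-classical, monocytes are blood monocytes that crawl along the vessel wall, are low in Ly6C and depend on the transcription factor Nr4a1. In mice they carry Treml4, Spn (CD43), Itgal (the alpha chain of LFA-1) and Fcgr4, and they express Ace, the angiotensin-converting enzyme, Adgre4, an adhesion receptor, and Cd300e, an activating receptor. Classical monocytes are high in Ly6c2 and Ccr2 and enter inflamed tissue, where they can become macrophages or dendritic cells. On the GRCm38 build, Ace lies at chr11:105967945-105989964, Adgre4 at chr17:55749984-55853662, Cd300e at chr11:115051917-115062177 and Spon1, the gene of a secreted matrix protein, at chr7:113765998-114043370. The 2 further genes of the label are Nr1h3 at chr2:91184061-91202834, which encodes the sterol-sensing receptor LXR alpha, and Cd72 at chr4:43446462-43454628, which encodes an inhibitory receptor also known from B cells.

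The libraries held 17309 to 54665 barcodes and 78179267 to 113606837 UMIs. Over all barcodes Fxr1, the gene targeted by the siRNA, had 57.3 and 36.6 CPM (UMIs of the gene per 1e6 UMIs) under the siCont label. With the siFXR1-LNA label Fxr1 stood at 104 and 74.4 CPM. Hemoglobin genes took 29.5% and 41.1% of all UMIs under the siCont label and 10.0% and 9.11% under the siFXR1-LNA label, and with these UMIs left out of the total Fxr1 was at 81.3 and 62.1 CPM against 116 and 81.8 CPM. On neither scale was Fxr1 RNA over all barcodes lower with the siFXR1-LNA label. The Fxr1 level of gated cells was 69.2 and 60.0 CPM with the siCont label and 67.6 and 64.9 CPM with the siFXR1-LNA label. The groups overlapped, with a log2 fold change of 0.03 (SE 0.20) and an adjusted p of 0.962 by edgeR (quasi-likelihood test, adjusted after Benjamini and Hochberg). Groups are therefore named by their labels throughout. Between 83 and 191 barcodes of kept cells were shared by a pair of libraries, while no barcode of a gated cell occurred as a gated cell in another library. Hemoglobin RNA, a sign of free RNA in the droplets, took 9.02% and 7.02% of the UMIs of gated cells in the libraries labelled siCont and 4.58% and 1.60% in those labelled siFXR1-LNA.

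Among Csf1r cells that met every other limit of the gate, the gated cells made up 18.9% in siCont replicate 1 (357 of 1888, exact 95% binomial interval 17.2 to 20.7%) and 41.3% in siCont replicate 2 (447 of 1082, 38.4 to 44.3%). They made up 2.97% in siFXR1-LNA replicate 1 (76 of 2556, 2.35 to 3.71%) and 5.00% in siFXR1-LNA replicate 2 (133 of 2660, 4.20 to 5.90%). Both shares labelled siCont lay above both labelled siFXR1-LNA, and the 2 siCont shares also lay apart from each other. The means were 30.1 ± 15.8% and 3.99 ± 1.43% (SD, n = 2 each), a difference of -26.1 percentage points with a two-sided exact permutation p of 0.333, the smallest that 2 against 2 libraries can give. These intervals cover counting error only. Gated cells had a median of 4628 and 8164 UMIs under the siCont label and of 4965 and 7976 under the siFXR1-LNA label. When each cell was thinned to 2000 UMIs, the shares were 5.61%, 12.8%, 0.425% and 0.587% in the same order. Among B cells, taken as cells with 2 or more Cd79a UMIs and no Csf1r, the limit of 2 marker UMIs was passed by 0.891% and 0.394% in the libraries labelled siCont and by 0 of 311 and 0 of 383 in those labelled siFXR1-LNA, which allows up to 1.18% and 0.959%. Median depth of these B cells was 2601 to 3865 UMIs. The denominator also changed with the label, since Csf1r cells with 2 or more Nos2 UMIs, which the gate leaves out, numbered 0 and 0 in the libraries labelled siCont and 1255 and 1269 in those labelled siFXR1-LNA.

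**Figure D1:**
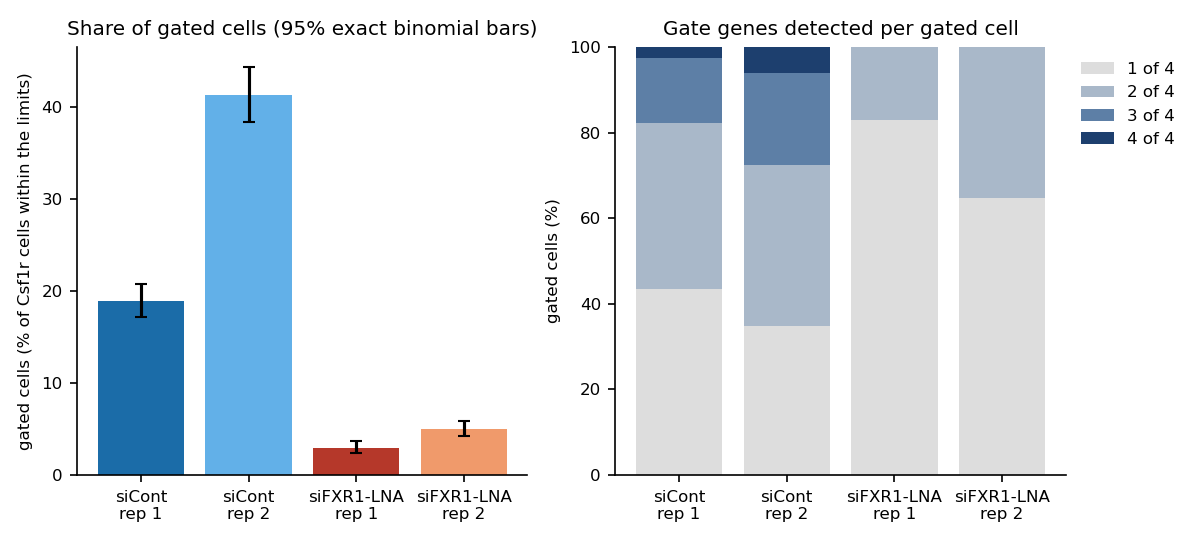
The left plot gives the share of gated cells among Csf1r cells within the other limits (percent, bars for each library, error bars are exact 95% binomial intervals), and the right plot gives the percent of gated cells in which 1, 2, 3 or 4 of Ace, Adgre4, Cd300e and Spon1 were detected. The shares were 18.9% and 41.3% in the libraries labelled siCont and 2.97% and 5.00% in those labelled siFXR1-LNA, and no cell of the latter had 3 or 4 of the genes.

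The gate was filled differently in the 2 groups. A single gate gene supplied the UMIs in 43.4% and 34.9% of the gated cells labelled siCont and in 82.9% and 64.7% of those labelled siFXR1-LNA. At least 3 of the genes were detected in 54 + 9 of 357 and 96 + 27 of 447 cells labelled siCont (3 genes + 4 genes), and in 0 of 76 and 0 of 133 cells labelled siFXR1-LNA. Spon1 alone opened the gate for 30.3% and 25.7% of the cells labelled siCont and for 50.0% and 30.1% of those labelled siFXR1-LNA. Ace was at 97.3 and 85.4 CPM in the gated cells labelled siCont and at 6.76 and 14.9 CPM in those labelled siFXR1-LNA, where it rested on 3 and 17 UMIs. Adgre4 was at 179 and 150.4 CPM against 99.2 and 126 CPM, Cd300e at 88.9 and 96.6 CPM against 65.4 and 43.0 CPM, and Spon1 at 297 and 237 CPM against 228 and 146 CPM. All of these genes were lower in both libraries labelled siFXR1-LNA, and Ace by the most.

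The label of patrolling monocyte-like cells was checked against marker genes outside the gate. In the libraries labelled siCont, Treml4 was at 55.1 and 67.5 CPM in gated cells and at 8.65 and 11.1 CPM in the other Csf1r cells, which are those that met the same limits with 0 UMIs of the 4 gate genes. Spn was at 63.0 and 76.0 CPM against 14.8 and 23.1 CPM, Nr4a1 at 53.5 and 63.7 CPM against 7.93 and 12.6 CPM, Itgal at 106 and 124 CPM against 34.1 and 44.7 CPM, and Fcgr4 at 385 and 399 CPM against 119 and 135 CPM. Nr1h3 was at 106 and 128 CPM against 28.1 and 31.5 CPM, and Cd72 at 293 and 333 CPM against 71.0 and 81.4 CPM. All 7 genes were higher in gated cells in both libraries. Not every patrolling monocyte gene went this way. Ear2, from the same list, was lower in gated cells, at 30.9 and 36.7 CPM against 51.4 and 81.1 CPM in the others. Cx3cr1 was higher by a smaller margin. With cells thinned as for the shares above, 17.4% and 21.5% of gated cells had a Cx3cr1 UMI, against 14.7% and 15.6% of the others. The gated cells labelled siCont were not low in Ly6c2, which stood at 1116 and 1933 CPM against 254 and 562 CPM in the other Csf1r cells. Ms4a4c, another gene of Ly6C-high monocytes, stood at 530.0 and 691 CPM against 140.0 and 226 CPM, and Ccr2, at 388 and 505 CPM against 328 and 591 CPM, was higher in 1 library and lower in the other. Other classical genes were lower in gated cells, among them F13a1, at 110.3 and 110.3 CPM against 434 and 727 CPM, with a UMI in 15.7% and 13.2% of gated cells against 46.3% and 53.5% of the others. So the gated cells labelled siCont held patrolling monocyte genes beside some classical ones. Over all 4 libraries, 2 of 15 classical monocyte genes were higher in gated cells in every library and 5 were lower.

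Under the siFXR1-LNA label the marker genes were mixed. In gated cells Treml4 was at 2.25 and 11.4 CPM, Nr1h3 at 4.51 and 5.27 CPM and Nr4a1 at 13.5 and 22.8 CPM, and the other Csf1r cells had 4.01 and 5.24 CPM of Treml4, 4.01 and 5.70 CPM of Nr1h3 and 16.9 and 29.7 CPM of Nr4a1. For Treml4 and Nr1h3 the gated cells were thus lower than the other cells in 1 of the 2 libraries, and for Nr4a1 they were lower in both. Spn at 27.0 and 30.7 CPM against 8.51 and 10.3 CPM and Cd72 at 20.3 and 54.4 CPM against 8.79 and 15.4 CPM were higher in both. Cx3cr1, the fractalkine receptor, was at 36.1 and 81.6 CPM against 10.6 and 30.6 CPM and Itgax (CD11c) at 33.8 and 37.7 CPM against 6.12 and 9.93 CPM, also higher in both. Thinned to 2000 UMIs, 6.58% and 18.9% of gated cells had a Cx3cr1 UMI against 2.08% and 4.56% of the others, and 5.26% and 6.82% had an Itgax UMI against 1.06% and 1.57%. Spn was also higher in both libraries after this thinning. Fcgr4 was lower in both, with a UMI in 17.1% and 24.2% of gated cells against 21.5% and 25.8% of the others. Cd72 was at 1.32% against 1.62% in siFXR1-LNA replicate 1 and at 12.1% against 1.61% in siFXR1-LNA replicate 2. Itgal was higher in gated cells of siFXR1-LNA replicate 1 and lower in those of siFXR1-LNA replicate 2. Over all 4 libraries, 8 of 20 patrolling monocyte genes were higher in gated than in other Csf1r cells in every library and 2 were lower, beside 13.4% and 17.4% of the 8943 genes described. The gene with the highest lowest ratio over the 4 libraries was the interferon-induced Ifit3, at 253, 267, 13.5 and 16.7 CPM in gated cells and 73.9, 71.0, 2.01 and 4.47 CPM in the others, ahead of Ms4a4c and Sirpb1a, a gene of the signal-regulatory protein family at 101, 132, 33.8 and 85.1 CPM against 28.1, 44.7, 9.85 and 23.2 CPM. The cells are called gated cells below for this reason.

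**Figure D2:**
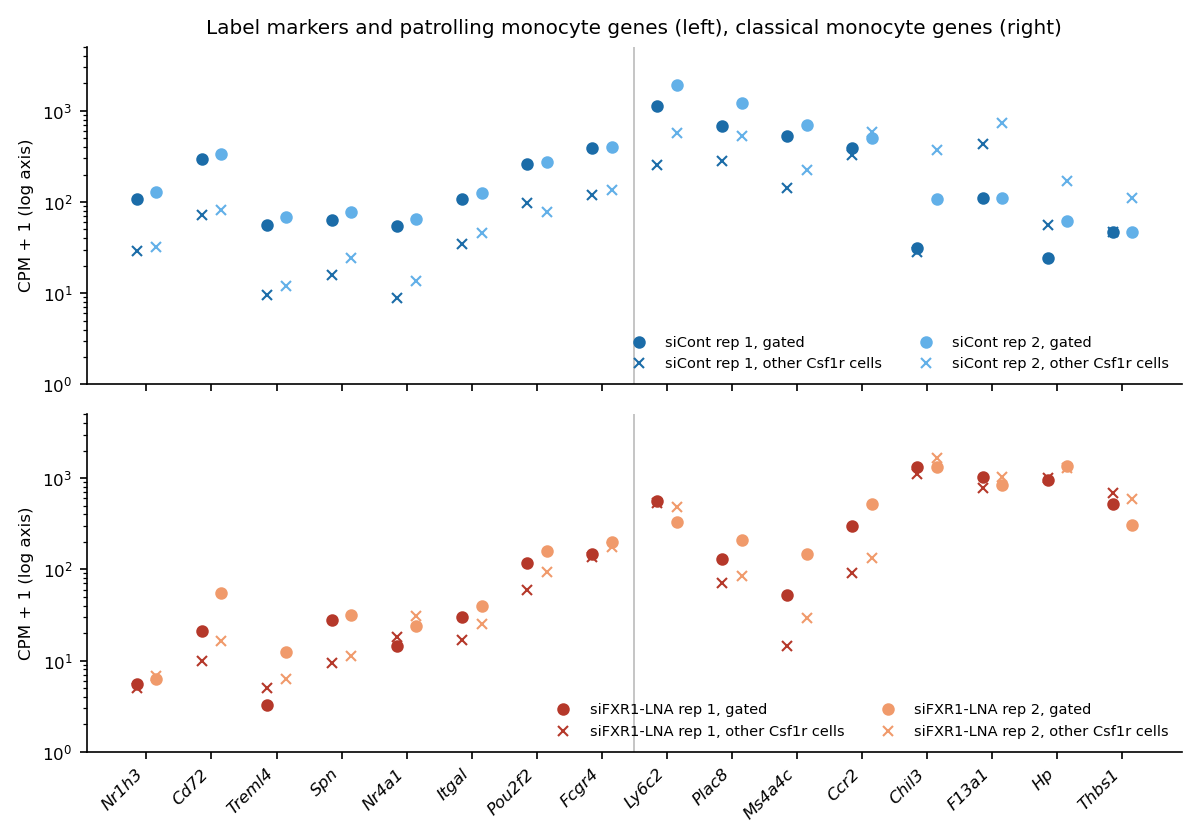
Levels in CPM plus 1 (log axis) are shown for the label genes Nr1h3 and Cd72 and 6 patrolling monocyte genes (left of the line) and for 8 classical monocyte genes (right), with circles for gated cells and crosses for other Csf1r cells of the same library. In the upper panel (libraries labelled siCont) the circles of the left genes lie above the crosses, and in the lower panel (labelled siFXR1-LNA) Chil3, F13a1, Hp and Thbs1 lie at 303 to 1370.1 CPM in gated cells.

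In the libraries labelled siCont, levels differed with the number of marker UMIs. In siCont replicate 1, Nr1h3 was at 28.1 CPM in cells with 0 marker UMIs, 59.5 with 1, 82.0 with 2, 101 with 3 and 139 with 4 or more. In siCont replicate 2 Nr1h3 was at 31.5, 55.5, 95.8, 83.8 and 153 CPM. The cells just outside the gate (1 marker UMI) therefore lay between the cells with none and those just inside it (2 marker UMIs) in both libraries. F13a1, which encodes a clotting factor chain abundant in monocytes and macrophages, moved the other way, from 434 and 727 CPM with 0 marker UMIs to 60.0 and 83.6 CPM with 4 or more. Ly6c2 peaked at 3 marker UMIs, with 1676 and 2540 CPM, and stood at 835 and 1813 CPM with 4 or more. In siFXR1-LNA replicate 2, Nr1h3 was at 5.70 CPM with 0, 8.36 with 1, 4.71 with 2, 3.63 with 3 and 8.82 with 4 or more marker UMIs, and F13a1 stayed between 560.3 and 1109 CPM. Bins of fewer than 20 cells in siFXR1-LNA replicate 1 are not given.

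**Figure D3:**
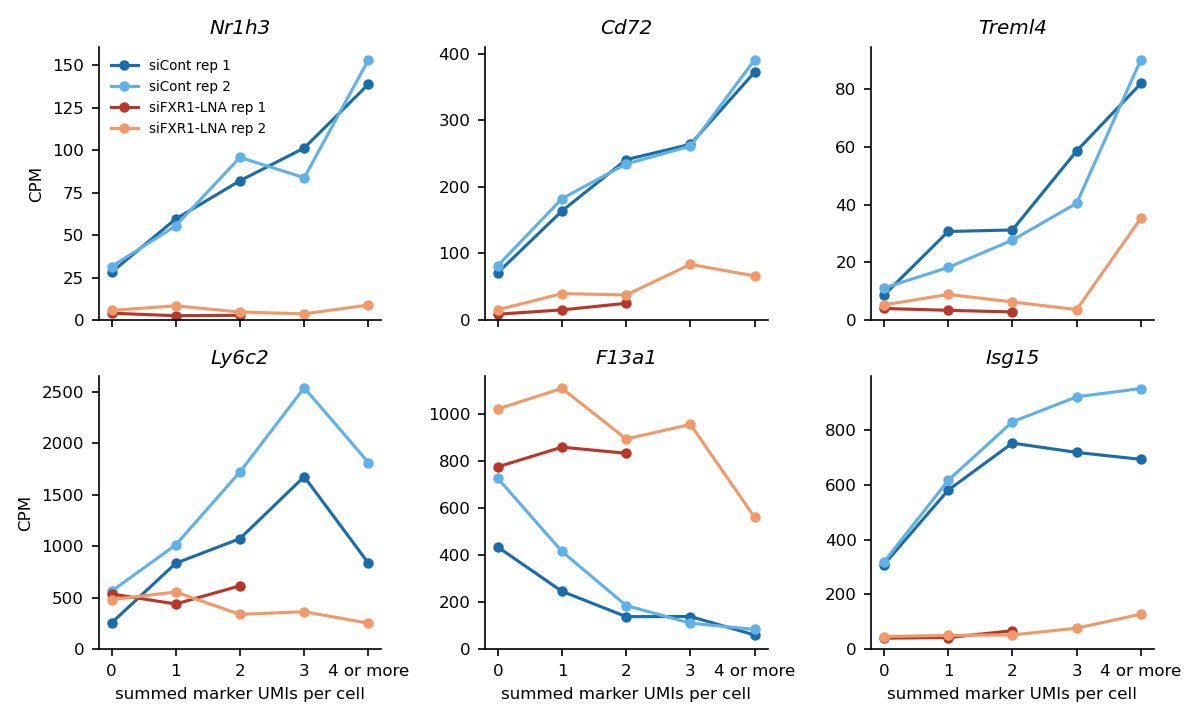
Each panel plots the level of 1 gene (CPM, linear axis) in Csf1r cells with 0, 1, 2, 3 or 4 and more UMIs summed over Ace, Adgre4, Cd300e and Spon1, with 1 line for each library and bins under 20 cells left out. In both libraries labelled siCont, Nr1h3, Cd72 and Treml4 are higher and F13a1 is lower with 4 or more marker UMIs than with 0, and Nr1h3 stays at or under 8.82 CPM in the plotted bins of those labelled siFXR1-LNA.

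The gated cells labelled siFXR1-LNA also differed among themselves by the gate gene they carried. Those with a Cd300e UMI numbered 18 and 26, those with a Spon1 UMI numbered 42 and 63, and Spon1 was at 0 and 3.34 CPM in the former. Saa3, which encodes an acute phase protein that macrophages make in inflammation, was at 57549 and 57856 CPM in the Cd300e cells and at 8094 and 5381.5 CPM in the Spon1 cells. Ly6c2 was at 1254 and 641 CPM against 29.5 and 124.7 CPM, and Chil3, which encodes the chitinase-like protein Ym1, at 1563 and 2026 CPM against 246 and 322 CPM. The Spon1 cells were instead high in genes of antigen presentation, with H2-Aa, an MHC class II chain, at 4650.0 and 9424 CPM against 567 and 958 CPM in the Cd300e cells. Ciita, which encodes the master regulator of MHC class II, was at 162 and 194 CPM against 0 and 0 CPM, Ccr2 at 605 and 811 CPM against 6.30 and 73.4 CPM, and Cd209a, a gene of monocyte-derived dendritic cells, at 54.1 and 78.6 CPM against 0 and 3.34 CPM. In the libraries labelled siCont the same 2 sets were nearer to each other, with H2-Aa at 6186 and 6373 CPM in Spon1 cells and 5236 and 6502 CPM in Cd300e cells, and Saa3 at 79.2 and 43.7 CPM against 62.1 and 28.0 CPM. These values describe cells that the gate chose by the same genes, and no test was made.

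The gated cells of the 2 groups were then compared on UMIs summed per library, over 9331 genes outside the gate. The gate was filled differently in the 2 groups, as given above, so rises and falls below are differences between these sums. A change within cells of the same kind was not tested apart from a change in which cells passed the gate. At an adjusted p under 0.05 (edgeR), 480 genes were higher (5.14%) and 567 lower (6.08%) in the libraries labelled siFXR1-LNA. Among Csf1r cells without gate UMIs, 26 of 12913 genes were higher and 7 lower. This lower count does not measure how far those cells moved, since it also depends on the spread between libraries of a label. Lcn2, for 1, was at 6.13 and 140 CPM against 2743 and 4055 CPM in them. An interaction test, given below, compares the 2 kinds of cell directly, and it called 239 of 11897 genes. Leaving out each library in turn gave 340 to 549 higher and 460 to 684 lower genes in the gated cells. A stricter gate moved the counts by more than 1.5 times, both on fewer cells. They became 127 higher and 217 lower of 7597 genes at 3 or more marker UMIs, and 198 and 333 of 7395 with UMIs of at least 2 different gate genes. Counts of listed genes under these gates, given below, are to be read beside these smaller shares of all genes. Free RNA was gauged in the B cells of the same libraries, which were shallower. Of the 480 genes that were higher, 282 had more CPM in gated cells than in B cells in both libraries labelled siFXR1-LNA, and of the 567 lower genes, 479 did so in both libraries labelled siCont. A level at or under that of B cells is read here as background or as RNA that B cells share.

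Interferon-stimulated genes fell together. All 15 that were tested passed the threshold downward (the background was 6.08%), with a median log2 fold change of -2.86 where the median of all genes was 0.00, and all 15 stayed past it in each alternative fit listed in the closing section. Isg15, a ubiquitin-like protein induced by interferon, was at 725 and 922 CPM in the gated cells labelled siCont and at 60.9 and 72.8 CPM in those labelled siFXR1-LNA. The groups lay far apart, with a log2 fold change of -3.61 (SE 0.24, edgeR adjusted p = 4.07e-05). Irf7, the transcription factor that amplifies the type I interferon response, was at 854 and 974 CPM against 18.0 and 79.9 CPM (-4.04, SE 0.41, edgeR adjusted p = 0.000314). Ifit3, which encodes an RNA-sensing antiviral protein partner, was at 253 and 267 CPM against 13.5 and 16.7 CPM (-4.06, SE 0.25, edgeR adjusted p = 3.79e-05). Bst2 (tetherin), which holds virus particles at the cell surface, was at 1135 and 1260.0 CPM against 138 and 219 CPM. The 15 genes lay above their B cell levels in both libraries labelled siCont. They were low elsewhere too: Isg15 was at 309 and 319 CPM against 40.1 and 45.9 CPM in the other Csf1r cells, and at 179 and 148 CPM against 29.9 and 27.3 CPM in B cells. The 3 genes of the family with the largest falls among all genes were Ifit3b at 84.4 and 106 CPM against 2.25 and 0.878 CPM, Ifit1bl1 at 36.6 and 51.4 CPM against 2.25 and 0 CPM, and Ifi44 at 76.0 and 83.5 CPM against 0 and 1.76 CPM. Ifit1bl1 did not exceed its B cell level in both libraries labelled siCont.

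The promoters of these genes are shown for the element through which interferon acts, the interferon-stimulated response element, here searched as GAAA, any 2 bases, GAAA, on both strands in the 250 bases before each RefSeq start (GRCm38.p6). Of the 15 genes that fell, 12 had a promoter sequence and 6 of these held a match, while 3.46% of 27025 genes did. The 30 bases around 1 match for each gene read 5′ to 3′ on the gene's strand, with the match in capitals (TTTC, any 2 bases, TTTC where it is on the opposite strand).
Isg15, chr4:156200865-156200894, minus strand: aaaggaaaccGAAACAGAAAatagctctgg
Ifit1, chr19:34640794-34640823, plus strand: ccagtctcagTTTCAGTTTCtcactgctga
Ifit3, chr19:34583397-34583426, plus strand: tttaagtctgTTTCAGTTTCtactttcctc
Rsad2, chr12:26456553-26456582, minus strand: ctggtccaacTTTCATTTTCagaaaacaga
Oas1a, chr5:120907526-120907555, minus strand: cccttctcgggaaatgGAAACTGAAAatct
Bst2, chr8:71537577-71537606, minus strand: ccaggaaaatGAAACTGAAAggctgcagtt
The matches end 4 to 114 bases before the start. They describe letters in the window and say nothing of which factor was bound in these cells.

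MHC class I genes fell as well. Of 10 tested, 9 passed the threshold downward and none upward (background 6.08%), with a median of -1.50, and the 9 lay above their B cell levels in the libraries labelled siCont. H2-K1, a classical class I heavy chain, was at 2309 and 2602 CPM against 689.8 and 974 CPM (-1.57, SE 0.22, edgeR adjusted p = 0.00164). B2m, the light chain, was at 3063 and 3252 CPM against 1283 and 1505 CPM, and Nlrc5, the transactivator of class I genes, at 98.5 and 106 CPM against 20.3 and 24.6 CPM (-2.16, SE 0.24, edgeR adjusted p = 0.000463). Tap2, a peptide transporter, was at 86.7 and 90.2 CPM against 18.0 and 61.4 CPM and did not pass (edgeR adjusted p = 0.111). MHC class II genes depended on the gate, with 1 of 9 past the threshold downward (background 6.08%) and a median of -0.63, but 7 of 8 lower and a median of -2.37 once Spon1 was taken out of the gate, and 6 of 9 lower with a median of -1.28 without siFXR1-LNA replicate 2. The 1 gene was H2-DMb1, at 432 and 508 CPM against 131 and 247 CPM. H2-Aa was at 5705 and 5929 CPM against 2581 and 4967 CPM (-0.63, SE 0.28, edgeR adjusted p = 0.194), so 1 library labelled siFXR1-LNA lay near the siCont values and the other below them.

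Of 20 patrolling monocyte genes 11 fell and 2 rose (background 6.08% lower and 5.14% higher). Treml4, an innate receptor of this subset, went from the values above by a log2 fold change of -2.85 (SE 0.39, edgeR adjusted p = 0.00159). Itgal was at 106 and 124 CPM against 29.3 and 38.6 CPM (-1.72, SE 0.23, edgeR adjusted p = 0.00157), and Spn at 63.0 and 76.0 CPM against 27.0 and 30.7 CPM (-1.26, SE 0.24, edgeR adjusted p = 0.00926). Of the label's genes outside the gate, Nr1h3 had a log2 fold change of -4.54 (SE 0.33, edgeR adjusted p = 6.7e-05) and Cd72 one of -2.91 (SE 0.31, edgeR adjusted p = 0.000405). Both groups lay apart for each of these genes. Nr1h3 and Cd72 came with the label, which was chosen with earlier results of these data known. The gated cells were mostly from libraries labelled siCont (357 and 447, against 76 and 133). These 2 falls and their p values are therefore no independent support for the label or for a group difference. In the other Csf1r cells Nr1h3 was at 28.1 and 31.5 CPM against 4.015 and 5.70 CPM. Cd72 was at 71.0 and 81.4 CPM against 8.79 and 15.4 CPM in them. Pou2f2, Klf2 and Bcl2 are among the 11, and their gated cells labelled siCont did not exceed B cells, which express these genes themselves. Cx3cr1, the fractalkine receptor by which patrolling monocytes are best known, was at 99.0 and 114 CPM against 36.1 and 81.6 CPM and did not pass (-0.76, SE 0.29, edgeR adjusted p = 0.139). At 3 or more marker UMIs 6 of the 20 fell and none rose (217 and 127 of all 7597 genes). With 2 gate genes 9 fell and 1 rose (333 and 198 of all 7395 genes). In the libraries labelled siFXR1-LNA 17 and 60 cells remained at 3 or more marker UMIs, and 13 and 47 with 2 gate genes.

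Classical monocyte genes went both ways, with 6 of 15 higher and 3 lower (background 5.14% and 6.08%) and a median of 1.25. Chil3 was at 30.4 and 107 CPM in the gated cells labelled siCont and at 1307 and 1331 CPM in those labelled siFXR1-LNA (4.19, SE 0.46, edgeR adjusted p = 0.000463). F13a1 was at 110.3 and 110.3 CPM against 1026 and 843 CPM (3.07, SE 0.20, edgeR adjusted p = 4.07e-05), and Hp, which encodes the hemoglobin-binding protein haptoglobin, at 23.1 and 61.0 CPM against 962 and 1370.1 CPM (4.71, SE 0.40, edgeR adjusted p = 0.000165). Thbs1 and Fn1, both secreted matrix glycoproteins, and Cd14, the lipopolysaccharide co-receptor, were the other 3 that rose. Ly6c2 fell, from 1116 and 1933 CPM to 559 and 327 CPM (-1.82, SE 0.33, edgeR adjusted p = 0.0068), and Plac8 and Ms4a4c fell with it. Ccr2, the receptor that takes monocytes out of the marrow, overlapped between the groups, at 388 and 505 CPM against 298 and 518 CPM (edgeR adjusted p = 0.823). For Chil3, F13a1 and Hp the B cells labelled siFXR1-LNA had 287 and 271 CPM, 103 and 72.3 CPM, and 158 and 256 CPM.

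The rises with the largest fold led into acute phase and neutrophil-type secretory genes. Saa3 was at 119.8 and 51.4 CPM in the gated cells labelled siCont and at 29301 and 21171 CPM in those labelled siFXR1-LNA (8.24, SE 0.46, edgeR adjusted p = 3.23e-05). Lcn2, which encodes the iron-siderophore binder lipocalin 2, was at 1.13 and 9.37 CPM against 2265 and 2278 CPM (8.46, SE 0.48, edgeR adjusted p = 3.23e-05). Slpi, a protease inhibitor, was at 10.1 and 21.9 CPM against 787 and 468 CPM, Ptges, the inducible prostaglandin E synthase, at 2.25 and 0.803 CPM against 99.2 and 85.1 CPM, and Wfdc21 at 0 and 5.09 CPM against 593 and 596 CPM. Summed over all gated cells, all 5 lay above their B cell levels. Under the siFXR1-LNA label these were 6230.0 and 7314 CPM for Saa3 and 1018 and 1288 CPM for Lcn2. In gated cells with a Spon1 UMI, Saa3, given above, exceeded its B cell level in siFXR1-LNA replicate 1 but not in siFXR1-LNA replicate 2. Cxcl2, a chemoattractant of neutrophils, was at 1.69 and 1.07 CPM against 205 and 543 CPM, but B cells of those libraries held 277 and 441 CPM, and Cxcl3 and Cxcl13 likewise did not exceed B cells in both libraries. Of the neutrophil list 5 of 7 genes rose (background 5.14%), but 0 of 5 at 3 or more marker UMIs and 2 of 6 at 2 or more Csf1r UMIs. Of the 5, S100a8, S100a9 and Retnlg were not above B cells in both libraries. For S100a8 and Retnlg the gated cells, at 1323 and 879 CPM and at 417 and 172 CPM, stood beside B cells at 1172 and 1041 CPM and at 482 and 237 CPM. Mast cell genes fell in the same way, 5 of 6 (background 6.08%), and none of the 5 exceeded B cells. Cma1 was at 321 and 114 CPM against 11.3 and 17.6 CPM in gated cells, and at 470.2 and 219.8 CPM against 14.9 and 41.8 CPM in B cells. The part of free RNA in the differences that did exceed B cells was not tested.

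Hypoxia and glycolysis genes rose, 12 of 13 (background 5.14%), with a median of 1.77. Pgk1, a glycolytic enzyme, was at 155 and 191 CPM against 467 and 508 CPM (1.48, SE 0.19, edgeR adjusted p = 0.00121), Slc2a1, the glucose transporter GLUT1, at 26.4 and 32.9 CPM against 113 and 97.4 CPM (1.77, SE 0.22, edgeR adjusted p = 0.00101), and Hilpda, a lipid droplet protein, at 10.7 and 6.96 CPM against 133 and 66.7 CPM (3.46, SE 0.38, edgeR adjusted p = 0.000448). These 3 with Aldoa and Hk2 exceeded B cells in both libraries labelled siFXR1-LNA. The other 7, among them Vegfa at 7.88 and 10.7 CPM against 153 and 113 CPM, did not, and B cells held 347 and 187 CPM of Vegfa there. The core letters of the hypoxia response element, ACGTG on either strand (CACGTG holds it on both), were found before the start of 9 of the 10 risen genes with a promoter sequence and of 18.5% of all genes. For 4 of the 5 genes above B cells the 30 bases around a match are shown in the same way as above.
Slc2a1, chr4:119108697-119108726, plus strand: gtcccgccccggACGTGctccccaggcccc
Pgk1, chrX:106186957-106186986, plus strand: aaatggaagtagCACGTctcactagtctcg
Hilpda, chr6:29272571-29272600, plus strand: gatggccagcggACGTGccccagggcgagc
Hk2, chr6:82774489-82774518, minus strand: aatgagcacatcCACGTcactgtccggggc
At 3 or more marker UMIs 6 of these 13 genes rose, and with UMIs of 2 gate genes 8 did.

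Genes of iron, heme and the oxidative stress factor NRF2 rose in 7 of 12 cases (background 5.14%), 6 of them above B cells. Summed over the list, gated cells had 7953 and 6886 CPM with the siCont label and 27615 and 22502 CPM with the siFXR1-LNA label. The other Csf1r cells were higher in each library, at 13728 and 11401 CPM against 31718 and 34204 CPM. Hmox1, which breaks down heme, was at 219 and 105 CPM against 1434 and 1553 CPM (3.22, SE 0.31, edgeR adjusted p = 0.000248). Fth1, the ferritin heavy chain that stores iron, was at 5359 and 4777 CPM against 21362 and 17048 CPM (1.92, SE 0.22, edgeR adjusted p = 0.000515), and Slc7a11, the cystine transporter, at 2.81 and 0.535 CPM against 128 and 53.5 CPM. The hemoglobin share of the UMIs moved the other way, as given above. Arg1, which degrades arginine, was at 208 and 161 CPM against 2051 and 936 CPM (3.01, SE 0.35, edgeR adjusted p = 0.000592), and Retnla, another gene of alternative activation, at 287 and 76.3 CPM against 6.76 and 4.39 CPM, so the alternative activation list went both ways, with 4 of 11 higher and 2 lower (background 5.14% and 6.08%), and 1 higher and 1 lower at 3 or more marker UMIs. Of 7 inflammatory cytokine genes 5 rose (background 5.14%) and all 5 exceeded B cells, but 1 of 6 rose with UMIs of 2 gate genes, and 3 of 9 without siFXR1-LNA replicate 2. Il1a was at 6.19 and 1.61 CPM against 49.6 and 31.6 CPM (3.51, SE 0.55, edgeR adjusted p = 0.00335), Tnf at 16.9 and 14.7 CPM against 45.1 and 42.1 CPM (1.45, SE 0.26, edgeR adjusted p = 0.00703), and Il1b at 113 and 116 CPM against 153 and 339 CPM (1.14, SE 0.30, edgeR adjusted p = 0.0361). Tgfb1, a suppressive cytokine, fell, from 302 and 345 CPM to 106 and 188 CPM. Among 18 chemokine and receptor genes 4 rose and 5 fell (background 5.14% and 6.08%), and at 3 or more marker UMIs 4 of 17 rose and 1 fell. Ccl3, Ccl4 and Ccl5, chemokines that draw in leukocytes, were at 16.3 and 21.4, 72.6 and 64.0, and 85.5 and 67.7 CPM against 110.5 and 194, 156 and 228, and 394 and 1022 CPM. The interferon-induced Cxcl10 fell from 62.5 and 91.8 CPM to 6.76 and 14.0 CPM (-2.74, SE 0.36, edgeR adjusted p = 0.00124).

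**Figure D4:**
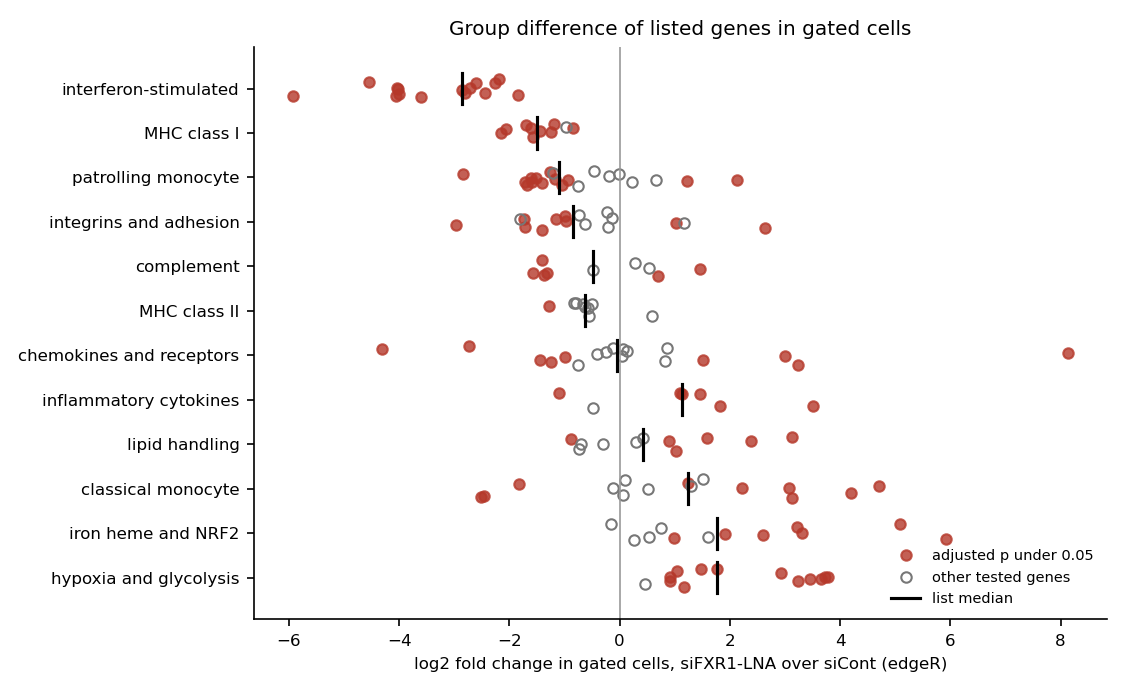
Each point is the edgeR log2 fold change of 1 listed gene in gated cells (libraries labelled siFXR1-LNA over siCont), filled where the adjusted p was under 0.05, and the black bars are list medians. All 15 interferon-stimulated genes lie left of 0 and are filled (median -2.86), and 12 of 13 hypoxia and glycolysis genes are filled on the right (median 1.77).

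Other families that the gate genes or the label belong to were followed through fixed lists. The background for the counts that follow was 6.08% lower and 5.14% higher. Of 14 genes of the LXR and sterol efflux list, 5 fell and 2 rose, and at 3 or more marker UMIs 3 fell and none rose. Beside Nr1h3, Abcg1, which exports cholesterol, fell from 79.3 and 94.2 CPM to 24.8 and 27.2 CPM (-1.74, SE 0.24, edgeR adjusted p = 0.00175), and Pltp, which transfers phospholipid, from 1136 and 1169.5 CPM to 167 and 377 CPM (-2.05, SE 0.31, edgeR adjusted p = 0.00248). Abca1, the other cholesterol exporter, was at 66.4 and 37.5 CPM against 171 and 105 CPM (1.39, SE 0.31, edgeR adjusted p = 0.0191), but not above B cells in both libraries, and Apoe overlapped between the groups, at 5469.6 and 3954 CPM against 2536 and 5119 CPM. Of 6 CD300 receptors 3 fell and none rose (background 6.08%), though DESeq2 called 1 of 6 lower and edgeR 1 of 5 at 3 or more marker UMIs, with Cd300a, an inhibitory one, at 301 and 380.4 CPM against 65.4 and 131 CPM (-1.73, SE 0.28, edgeR adjusted p = 0.00379). Within the adhesion receptor family of Adgre4, Adgre5 (CD97) fell from 485 and 533 CPM to 113 and 151 CPM (-1.93, SE 0.21, edgeR adjusted p = 0.000406) and Adgre1 (F4/80), a macrophage marker, rose from 74.8 and 105 CPM to 289 and 243 CPM (1.53, SE 0.22, edgeR adjusted p = 0.00228). Integrin and adhesion genes fell in 7 and rose in 2 of 16 cases (background 6.08% and 5.14%), or fell in 4 and rose in 1 at 3 or more marker UMIs, with Itgam (CD11b) at 395 and 412 CPM against 902 and 743 CPM. Complement genes fell in 4 and rose in 2 of 9 (background 6.08% and 5.14%), and C1qb, a chain of C1q that macrophages secrete, was at 4527 and 4370.0 CPM against 1526 and 1851 CPM (-1.40, SE 0.19, edgeR adjusted p = 0.00158). Of 4 tested genes of the angiotensin and peptidase list, to which Ace belongs, none passed, and edgeR gave adjusted p values of 0.0814 for Anpep, 0.236 for Lnpep, 0.364 for Mme and 0.703 for Dpp4. Toll-like receptor genes passed in 1 of 10 cases (Tlr2, higher) by edgeR and in none by DESeq2, near the background of 5.14%.

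**Figure D5:**
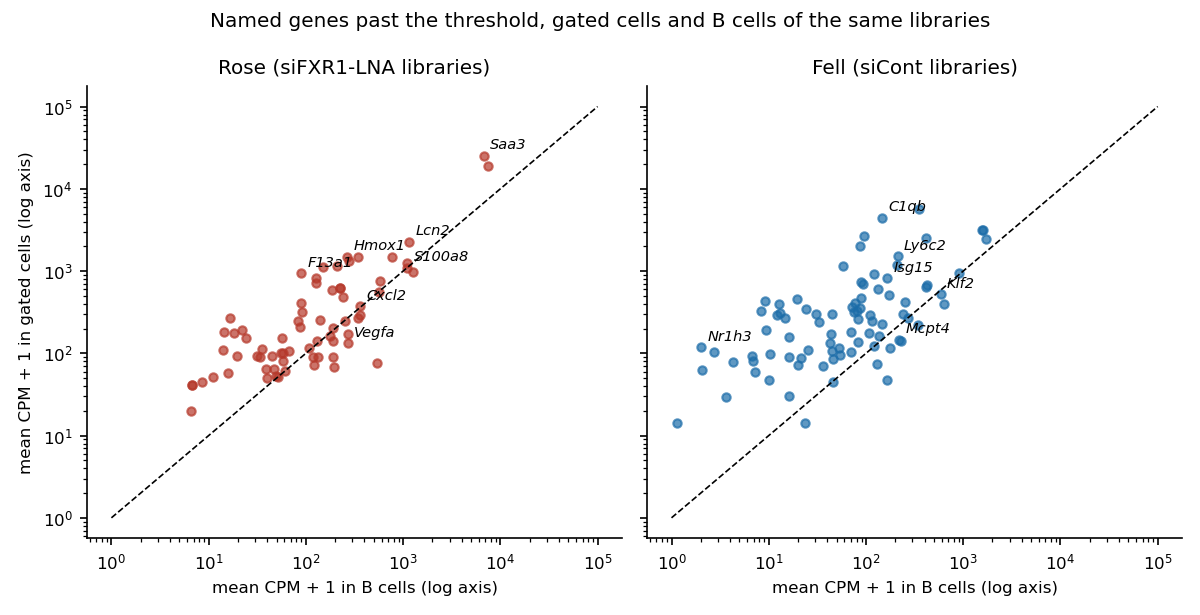
Mean levels (CPM plus 1, both axes log) in gated cells are plotted against those in B cells of the same libraries for the named genes past the threshold, on the left for genes that rose (means over the libraries labelled siFXR1-LNA) and on the right for genes that fell (libraries labelled siCont), with a dashed line of equality. Saa3, Lcn2, F13a1 and Hmox1 lie above the line and Vegfa below it on the left, and Isg15 and Nr1h3 lie above it and Mcpt4 below it on the right.

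Whether the gated cells changed more or less than the other Csf1r cells of the same libraries was put to an interaction test that kept each library as its own block. Of 11897 genes, 139 (1.17%) had a more positive and 100 (0.841%) a more negative group difference in gated cells. This count of 239 depended on single libraries and was 519 without siCont replicate 1 and 45 without siFXR1-LNA replicate 2. The difference for Nr4a1 was -2.92 (SE 0.33, edgeR adjusted p = 3.11e-05), with levels of 53.5, 63.7, 13.5 and 22.8 CPM in gated cells and 7.93, 12.6, 16.9 and 29.7 CPM in the others. For Slfn4, an interferon-inducible gene of the Schlafen family, it was -3.71 (SE 0.33, edgeR adjusted p = 6.26e-06), for Fcgr4 -1.49 (SE 0.19, edgeR adjusted p = 0.000112) and for Ly6c2 -2.24 (SE 0.23, edgeR adjusted p = 1.64e-05). F13a1 differed by 2.40 (SE 0.26, edgeR adjusted p = 2.39e-05), since the others already held 434 and 727 CPM of F13a1 under the siCont label, against 775 and 1022 CPM under the siFXR1-LNA label. Ccr2 differed by 1.84 (SE 0.21, edgeR adjusted p = 3.85e-05), with 328 and 591 CPM against 89.5 and 132 CPM in the others and no difference past the threshold in gated cells. MHC class II genes were 7 of 9 on this side (background 1.17%), and H2-Aa was at 3748 and 3882 CPM against 813 and 1614 CPM in the others (1.01, SE 0.20, edgeR adjusted p = 0.0103). The gated cells with a Spon1 UMI held most of this RNA, with H2-Aa at 4650.0 and 9424 CPM under the siFXR1-LNA label against 567 and 958 CPM in those with a Cd300e UMI, and without Spon1 in the gate 7 of 8 class II genes fell in gated cells, as given above. Of 14 hypoxia and glycolysis genes none differed by edgeR. A p that missed the threshold does not show that this list moved alike in the 2 kinds of cell. The gate's own choice of cells enters each of these differences, since gated and other cells were split by RNA from the same counts.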

How the data were processed

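Ascites cells were profiled with 10x Genomics 3′ chemistry in 4 libraries, 2 per label. The files deposited by the authors hold raw UMI counts (Cell Ranger 7.0.0 in the processing notes, mm10), with no normalization. The labels and the methods differ on the kit and Cell Ranger versions. Cells were gated on UMIs as given in the report. The members and the gene lists were chosen with earlier results of these data known. UMIs were summed per library and compared with edgeR 4.0.16 (quasi-likelihood test after filterByExpr and TMM scaling, adjusted p under 0.05 by Benjamini-Hochberg), without the 15 gate genes. Replicates are pools of 3 mice each. Scripts were tested on simulated data. Genes named were Fxr1, the label's markers, listed genes past the threshold, and the 10 largest rises and 10 largest falls among genes with groups that did not overlap and a mean of at least 20 CPM. Some genes that passed are not reported here. Listed genes not past the threshold were named after their values were seen. Scrublet (scanpy 1.11.5) marked too few doublets to be used as a caller, so the top 5% of scores were removed as an alternative. Alternatives were DESeq2 1.42.0, its size factors in edgeR, no low-count filter, at least 3 marker or 2 Csf1r UMIs, a replicate block, each library left out and, chosen after seeing the data, a gate without Spon1, UMIs of 2 gate genes, and all Csf1r cells as denominator. Promoters and positions were from RefSeq and GENCODE vM21.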

Additional observations from a re-analysis of the deposited data

Results flagged for a closer look

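The genes below changed between the labels by a different amount in gated cells than in the other Csf1r cells of the same libraries, by the edgeR interaction term (adjusted p 6.26e-06 to 0.0490). Values are differences of log2 fold changes, gated minus other cells, siFXR1-LNA over siCont. The gate itself separated the 2 kinds of cell, and its part in these values was not tested.

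Among monocyte and gate-related genes the difference was -2.04 for Nr1h3, -2.92 for Nr4a1, -1.85 for Treml4, -0.80 for Pou2f2, -1.49 for Fcgr4 and -2.24 for Ly6c2. It was 2.40 for F13a1, 1.90 for Fn1 and 1.38 for Hp. Receptor and adhesion genes gave 1.08 for Adgre1, -1.10 for Adgre5, -1.08 for Cd300ld and -2.18 for Pecam1, and the lipid genes gave -0.97 for Pltp, 1.67 for Trem2 and 1.60 for Fabp5.

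Interferon and antigen presentation genes gave -3.71 for Slfn4, -2.24 for Iigp1 and -1.07 for H2-K1. Acute phase and neutrophil-type genes gave 3.24 for Lcn2, 1.91 for Saa3, 3.41 for Wfdc21, 2.95 for Mmp8 and 2.25 for Cxcl2. The level of Cxcl2 exceeded that of B cells in siFXR1-LNA replicate 2 but not in siFXR1-LNA replicate 1. For Saa3 and Lcn2 the gated cells started lower in the libraries labelled siCont, at 119.8 and 51.4 CPM of Saa3 against 634 and 219 CPM in the other cells, and at 1.13 and 9.37 CPM of Lcn2 against 6.13 and 139.8 CPM. With the siFXR1-LNA label Lcn2 was still lower in gated cells, at 2265.4 and 2278.5 CPM against 2743.2 and 4055.1 CPM.

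Cytokine genes gave -1.67 for Il1b, -1.40 for Il1rn and -1.21 for Cxcl16. Alternative activation genes gave 1.30 for Arg1, 1.84 for Mrc1, 2.03 for Cd163, -1.90 for Tgm2 and -1.11 for Cd274. The complement gene Cfb gave -1.94, and Hmox1 gave 2.15, Cd209a 2.18 and Pf4 1.89.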

How the results depend on the processing

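Under each alternative run, gated cells had a smaller share with the siFXR1-LNA label, and leaving out 1 library gave differences of -37.3 to -14.9 percentage points. The 480 higher and 567 lower genes became 319 and 358 with DESeq2, 198 and 333 with UMIs of 2 gate genes, and 127 and 217 at 3 or more marker UMIs. Leaving out 1 library gave 340 to 549 higher and 460 to 684 lower genes. The 239 genes of the interaction became 439 with no filter on low counts, and 45 to 519 when 1 library was left out. The cause was not tested. With the replicate number as a block the counts were 996 higher and 950 lower genes, but the labels share only a number, with 2 pairs and a correlation of deviations of 0.176 over 9340 genes. Under this block 7 of 9 MHC class II genes were lower. Fxr1, with a log2 fold change of 0.03, turned to -0.01163 at 3 or more marker UMIs, -0.02255 with the gate without Spon1, -0.001681 with size factors, -0.04133 with no filter and -0.02892 without the highest Scrublet scores, and ranged from -0.05157 to 0.08111 with 1 library left out. Mrc1 turned to -0.5452 with the gate without Spon1, and Kcnd2 to -0.1747 at 2 or more Csf1r UMIs and -0.7359 at 3 or more marker UMIs. Of 1969 values of 153 named genes under alternatives, 1758 kept direction and call, 208 lost the call and these 3 turned. With 2 pooled libraries per label the spread between mice is unknown, and 76 and 133 gated cells limit the depth of the libraries labelled siFXR1-LNA.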
